A study of Mus musculus with 32 samples.

Results

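The fetal liver stem cells of 2 Prdm16 alleles were read together here: a total loss of the gene, and a loss of only its full-length form, f-PRDM16. The members are 12 of the 32 libraries of the series, 6 from knockout (KO) and 6 from wild-type (WT) mice, taken from the 2 fetal liver count tables joined on 21280 shared gene symbols without Gm-numbered rows. The groups were 3 PRDM16-KO and 3 WT libraries of the total loss, and 3 f-PRDM16-KO libraries, labelled as expressing s-PRDM16 only from an allele named for 47 bp, with their own 3 WT libraries. All were haematopoietic stem cells (HSCs) sorted from fetal liver as Lin-cKit+Sca1+CD48-, untreated and uncultured. The column names of the total loss carry the prefix VAV, for the Vav-Cre driver of the study, which acts across blood cells and endothelium and deletes a floxed gene only where the driver is active. Fetal age, sex and the number of fetuses per library are not given in the labels. The question of the pooled comparison is which RNA changes both losses share.

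PRDM16 is a zinc-finger protein of the PRDM family that works with corepressors such as CtBP and the SKI proteins. Its full-length form carries a PR domain near the amino terminus, and the short form, s-PRDM16, lacks it. In blood PRDM16 is known for the upkeep of HSCs, together with its close relative PRDM3, which is encoded by Mecom.

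The deposited depth was 26.7 to 33.2 M counts per library in the total-loss table and 35.5 to 45 M in the f-PRDM16-loss table. The tables were not alike in make-up. Of 15242 genes tested, 818 had 0 counts in all 6 libraries of the f-PRDM16-loss table, and 2119 had mean levels more than 16-fold apart between tables. Gene levels are therefore given as CPM, counts scaled to a common library size, within a table, and only differences between KO and WT are pooled. The label was checked against markers: Kit was at 213 to 511 CPM and Ly6a, which encodes Sca1, at 121 to 847 CPM over the 12 libraries. The T-cell gene Cd3e was at 0 to 0.427 CPM, but Cd3g, of the same T-cell receptor complex, ranged over 0 to 15.4 CPM. Mpo, a granule gene of early myeloid cells, ranged over 34.2 to 25100 CPM. Xist was at 0.282 and 0.615 CPM in f-PRDM16-loss WT 2 and 3 and at 26.8 to 122 CPM in the other libraries. The Y-linked Eif2s3y was at 0 in total-loss WT 1 and 2. Sex-linked levels thus differed between libraries of 1 group, and also between KO and WT libraries of the same number. Xist had 60.9 and 75.6 CPM in f-PRDM16-loss KO 2 and 3, and Eif2s3y 37 and 12.1 CPM in total-loss KO 1 and 2. Between those libraries and their WT, sex and KO cannot be told apart.

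Few genes passed the test of a shared change, and most of those fell. Over 6 KO and 6 WT libraries, with table and replicate number as block, 25 of 15242 genes passed edgeR's quasi-likelihood test at an adjusted p below 0.05, which is 0.164% of those tested. Of these 3 rose (0.0197%) and 22 fell (0.144%). At an unadjusted p below 0.05 there were 3287 genes (21.6%), 1868 higher and 1419 lower in KO, and DESeq2 called 1685 (11.1%) at an adjusted p below 0.05, 946 higher and 739 lower, so the downward majority holds for the 25 and not for these wider sets. In edgeR 0 genes passed without the block, 0 without total-loss pair 3 or f-PRDM16-loss pair 2, 1 without total-loss pair 2, 12 without f-PRDM16-loss pair 3, 40 without total-loss pair 1, and 409 (268 up, 141 down) without f-PRDM16-loss pair 1. The genes that fell included the HSC transcription factors Hlf and Mecom, both chains of the basement-membrane collagen Col4a1 and Col4a2, the endocytic scaffold Itsn1 and the myosin Myo5c. The genes that rose were the neutrophil gelatinase Mmp9, the Golgi membrane protein Golm1 and the endoplasmic reticulum co-chaperone Dnajb11.

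Prdm16 itself was lower in KO libraries of both losses but present in all of them. In the total loss it had 28.7, 28.3 and 13.9 CPM in KO libraries, against 43, 46.3 and 30 CPM in WT libraries. In the f-PRDM16 loss it had 6.43, 9.6 and 7.68 CPM in KO libraries, against 13.1, 31.1 and 19.9 CPM in WT libraries. KO and WT did not overlap in either table. The common log2 change was -1.08 ± 0.14 (SE, edgeR adjusted p = 0.0286), with -0.80 ± 0.16 for the total loss and -1.37 ± 0.16 for the f-PRDM16 loss. Counts per gene do not tell the 2 forms apart, nor RNA made from an allele that lacks part of the gene. In bulk samples fewer cells of a type and less RNA per cell cannot be told apart, here and below.

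Mecom and Hlf, which encode transcription factors needed by HSCs, fell in both losses. Mecom had 91.6, 81.9 and 65.2 CPM in total-loss KO libraries, against 122, 127 and 99.4 CPM in their WT libraries. Mecom in the f-PRDM16 loss had 18.8, 57.1 and 38.3 CPM in KO libraries, against 33.9, 110 and 88.2 CPM in WT libraries. Every KO library was below the WT library of its own number, although WT 1 of the f-PRDM16 loss lay below KO 2 and 3. The common log2 change of Mecom was -0.77 ± 0.10 (edgeR adjusted p = 0.0272). Hlf had 162, 150 and 122 CPM in total-loss KO libraries, against 211, 219 and 183 CPM in WT libraries. For the f-PRDM16 loss Hlf had 58.8, 131 and 87.5 CPM in KO libraries, against 85.4, 233 and 169 CPM in WT libraries. Its common log2 change was -0.64 ± 0.07 (edgeR adjusted p = 0.0182), and as with Mecom the groups overlapped only in the f-PRDM16 loss, through the low WT 1.

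**Figure D1:**
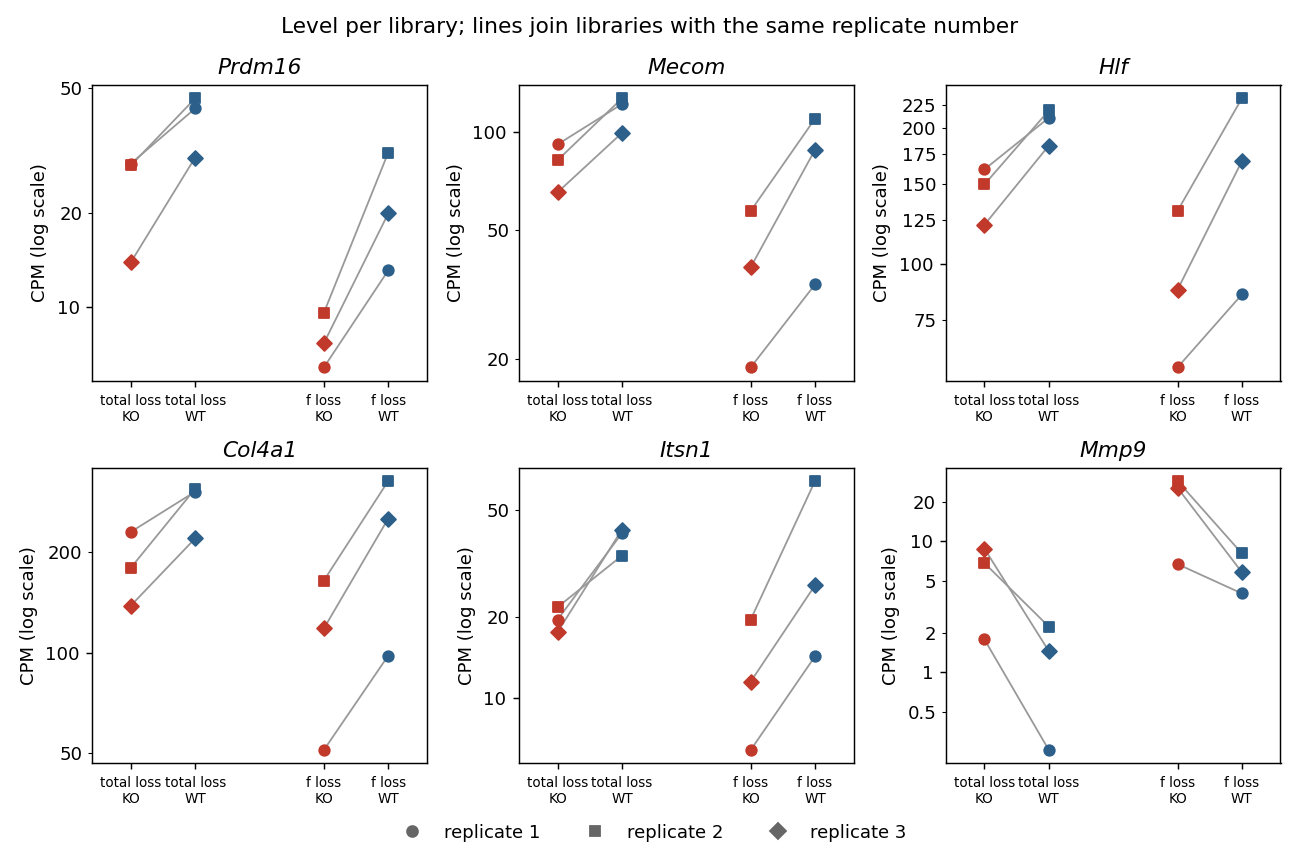
CPM per library on a log axis for 6 genes that passed, in KO and WT libraries of each loss; lines join libraries with the same replicate number. In all 6 genes each line runs the same way, while the f-PRDM16-loss pair numbered 1 (circles) is the lowest of its group in both KO and WT.

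The promoters of Prdm16, Mecom and Hlf are shown because these 3 regulators fell together. The sequences are from RefSeq on build GRCm38.p6, read in the direction of the gene, as the 250 bases before the annotated start for Prdm16 (chr4:154636874-154637123, minus strand) and Hlf (chr11:90390918-90391167, minus strand). For Mecom the 187 bases of that window outside annotated exons are given (chr3:30509823-30510009, minus strand). Capitals mark GGGCGG, the core of the Sp-factor box, on either strand.
Prdm16: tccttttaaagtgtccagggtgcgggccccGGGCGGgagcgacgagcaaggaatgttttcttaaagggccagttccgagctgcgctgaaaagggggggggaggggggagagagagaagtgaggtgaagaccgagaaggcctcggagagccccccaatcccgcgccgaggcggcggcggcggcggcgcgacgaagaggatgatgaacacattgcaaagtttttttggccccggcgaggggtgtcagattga
Mecom: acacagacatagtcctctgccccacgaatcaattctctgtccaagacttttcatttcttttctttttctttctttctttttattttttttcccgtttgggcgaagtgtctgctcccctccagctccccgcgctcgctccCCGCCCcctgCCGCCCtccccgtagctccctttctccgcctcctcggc
Hlf: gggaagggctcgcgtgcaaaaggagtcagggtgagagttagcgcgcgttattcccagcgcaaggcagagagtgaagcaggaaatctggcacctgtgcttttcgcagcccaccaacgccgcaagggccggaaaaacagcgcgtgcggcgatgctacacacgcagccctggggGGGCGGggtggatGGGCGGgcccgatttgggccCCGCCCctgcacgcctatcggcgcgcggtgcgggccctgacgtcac
GGGCGG was found once or more in each of these sequences, with 1 match in Prdm16, 2 in Mecom and 3 in Hlf. Of the 25 genes that passed, 17 matched an entry of the promoter table, with 18 start sites. GGGCGG on either strand stood in 11 of those 18 promoters (61.1%), against 32.7% of all 32851 promoters in the table. The GATA motif AGATAA stood in 0 of 18, against 9.99% of all, and the ETS motif CCGGAAG in 2 of 18 (11.1%), against 6.91% of all. The background held every promoter, whether or not its gene was tested here, and was not matched for the share of G and C bases. That share was 62.4% in the Prdm16 sequence, 54.0% in Mecom and 67.2% in Hlf. Enrichment was not tested. A match describes letters in the window and is no evidence of binding.

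The type IV collagen chains, which assemble into 1 network of the basement membrane, fell side by side. Col4a1 had 229, 179 and 138 CPM in total-loss KO libraries, against 302, 308 and 219 CPM in WT libraries. In the f-PRDM16 loss Col4a1 had 51.2, 164 and 118 CPM in KO libraries, against 97.9, 325 and 251 CPM in WT libraries. Col4a2 had 144, 122 and 88.6 CPM in total-loss KO libraries, against 214, 197 and 148 CPM in WT libraries. For both genes each KO library was below its WT partner; the total-loss groups overlapped in Col4a1 and not in Col4a2. Col4a2 in the f-PRDM16 loss had 40.9, 119 and 85.7 CPM in KO libraries, against 80, 258 and 227 CPM in WT libraries. The common log2 changes were -0.81 ± 0.08 for Col4a1 and -0.92 ± 0.10 for Col4a2 (edgeR adjusted p = 0.0182 for each). The pair lies head to head on mouse chromosome 8, where on GRCm38.p6 the Col4a1 start at 11312826 (minus strand) and the Col4a2 start at 11312805 (plus strand) overlap by 22 bases, so the genes are not independent of each other.

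The largest falls were in genes at low to moderate levels. Myo5c, a class V myosin of vesicle transport, had 3.31, 4.68 and 4.55 CPM in total-loss KO libraries, against 9.78, 10.8 and 10.7 CPM in WT libraries. The f-PRDM16-loss libraries had 0.758, 6.95 and 3.48 CPM in KO libraries, against 3.97, 26.9 and 11.9 CPM in WT libraries. The total-loss groups were far apart and the f-PRDM16-loss groups overlapped through the pair numbered 1. The common log2 change was -1.67 ± 0.18 (edgeR adjusted p = 0.0182). Pcp4l1, a small relative of the calmodulin-binding protein PCP4, changed by -1.77 ± 0.20 (edgeR adjusted p = 0.0182), with 4.38, 6.28 and 11.7 CPM in total-loss KO libraries, against 12.3, 19 and 24.4 CPM in WT libraries. Ndnf, a secreted factor, changed by -1.52 ± 0.21 (edgeR adjusted p = 0.0288).

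Itsn1, which encodes the scaffold intersectin of clathrin-mediated endocytosis, had 19.6, 21.8 and 17.6 CPM in total-loss KO libraries, against 41.1, 33.9 and 42.4 CPM in WT libraries. Its f-PRDM16-loss levels were 6.4, 19.6 and 11.5 CPM in KO libraries, against 14.3, 64.3 and 26.3 CPM in WT libraries. All 6 KO libraries were below their partners. Its common log2 change was -1.18 ± 0.12 (edgeR adjusted p = 0.0182).

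The remaining genes that fell belong to several kinds of function. Fxyd7, a regulator of the sodium pump, changed by -1.33 ± 0.20, and Gimap4, a GTPase of lymphoid cells, by -0.85 ± 0.13 (edgeR adjusted p = 0.047 for each). Metabolic enzymes were Naprt1, which makes NAD from nicotinate (-0.75 ± 0.10, edgeR adjusted p = 0.0286), and Ldhb, the heart-type lactate dehydrogenase (-0.43 ± 0.06, edgeR adjusted p = 0.0444). The actin regulators were Vill, a relative of villin (-0.57 ± 0.08, edgeR adjusted p = 0.0286), and Capg, a filament-capping protein (-0.44 ± 0.06, edgeR adjusted p = 0.0286). Vill and Prdm16 were the 2 called genes whose KO and WT levels did not overlap in either table; over all genes tested 74 (0.486%) lay lower in KO without overlap in both tables. The others were Wbscr27, Man1a (a Golgi mannosidase), Rcan3 (a calcineurin regulator), Thsd1, Zfp608, Pcdhgb4 and Gvin1, with common log2 changes of -0.83 to -0.39.

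Levels of Gvin1 and Pcdhgb4 were far apart between the tables. Gvin1, an interferon-inducible large GTPase, had 211, 189 and 239 CPM in total-loss KO libraries, against 363, 325 and 456 CPM in WT libraries, and 0 counts in all 6 libraries of the f-PRDM16 loss. Its change was thus measured in the total loss only. Pcdhgb4, a gamma-protocadherin, had 0.673 to 0.708 CPM in f-PRDM16-loss KO libraries, against 0.958 to 1.27 CPM in WT libraries, beside 17.8 to 41.2 CPM in total-loss KO libraries, against 35 to 59.5 CPM in WT libraries. Its log2 change was -0.73 ± 0.14 for the total loss and -0.75 ± 0.19 for the f-PRDM16 loss, with overlap of KO and WT in the total loss only. Gamma-protocadherin genes share their last exons, so how reads were assigned among them is uncertain.

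Of the 3 genes that rose, Mmp9 had the largest change. It had 1.78, 6.83 and 8.8 CPM in total-loss KO libraries, against 0.254, 2.23 and 1.45 CPM in WT libraries. In the f-PRDM16 loss it had 6.71, 29 and 25.7 CPM in KO libraries, against 4, 8.09 and 5.81 CPM in WT libraries. Each KO library exceeded its partner, and the groups overlapped in both tables. The common log2 change was 1.87 ± 0.25 (edgeR adjusted p = 0.0286). Mmp9 is stored in neutrophil granules and is a member of the granulocyte list described below.

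Golm1, a Golgi membrane protein, had 26.8, 33.8 and 24.3 CPM in total-loss KO libraries, against 20.3, 15 and 10.2 CPM in WT libraries. For the f-PRDM16 loss it had 69.7, 41.4 and 44.4 CPM in KO libraries, against 52.9, 22.8 and 21.1 CPM in WT libraries. The groups were apart in the total loss and overlapped in the f-PRDM16 loss through WT 1. Its common log2 change was 0.86 ± 0.13 (edgeR adjusted p = 0.0478). Dnajb11, a partner of the chaperone BiP, had 136, 146 and 192 CPM in total-loss KO libraries, against 111, 121 and 146 CPM in WT libraries, and 295, 193 and 236 CPM in f-PRDM16-loss KO libraries, against 251, 142 and 180 CPM in WT libraries. Its change was small, 0.33 ± 0.05 (edgeR adjusted p = 0.033), with 0.31 for the total loss and 0.35 for the f-PRDM16 loss.

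Direction was shared across pairs. Of the 25 genes, 24 had 1 sign in all 6 pairs, with Gvin1 the exception, against 13.8% of all genes tested; since the test itself uses these pairs, this is a description. In 22 of the 25 the f-PRDM16-loss change was the larger in size, for example -1.0 against -0.55 for Mecom and -2.03 against -1.06 for Ndnf. When the joint fit was read loss by loss, 103 genes passed for the f-PRDM16 loss (0.676%), 10 up (0.0656%) and 93 down (0.61%), 13 of them among the 25. For the total loss 0 genes passed in edgeR, with 1514 (9.93%) at an unadjusted p below 0.05. With each table fitted alone the order was the opposite, 160 genes for the total loss and 0 for the f-PRDM16 loss (1629 at an unadjusted p below 0.05), so these counts do not rank the losses. Over all genes tested, the log2 changes of the total and f-PRDM16 losses, which have separate WT libraries, had Pearson r = 0.28 and Spearman rho = 0.38; genes are not independent replicates, so no p is given.

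**Figure D2:**
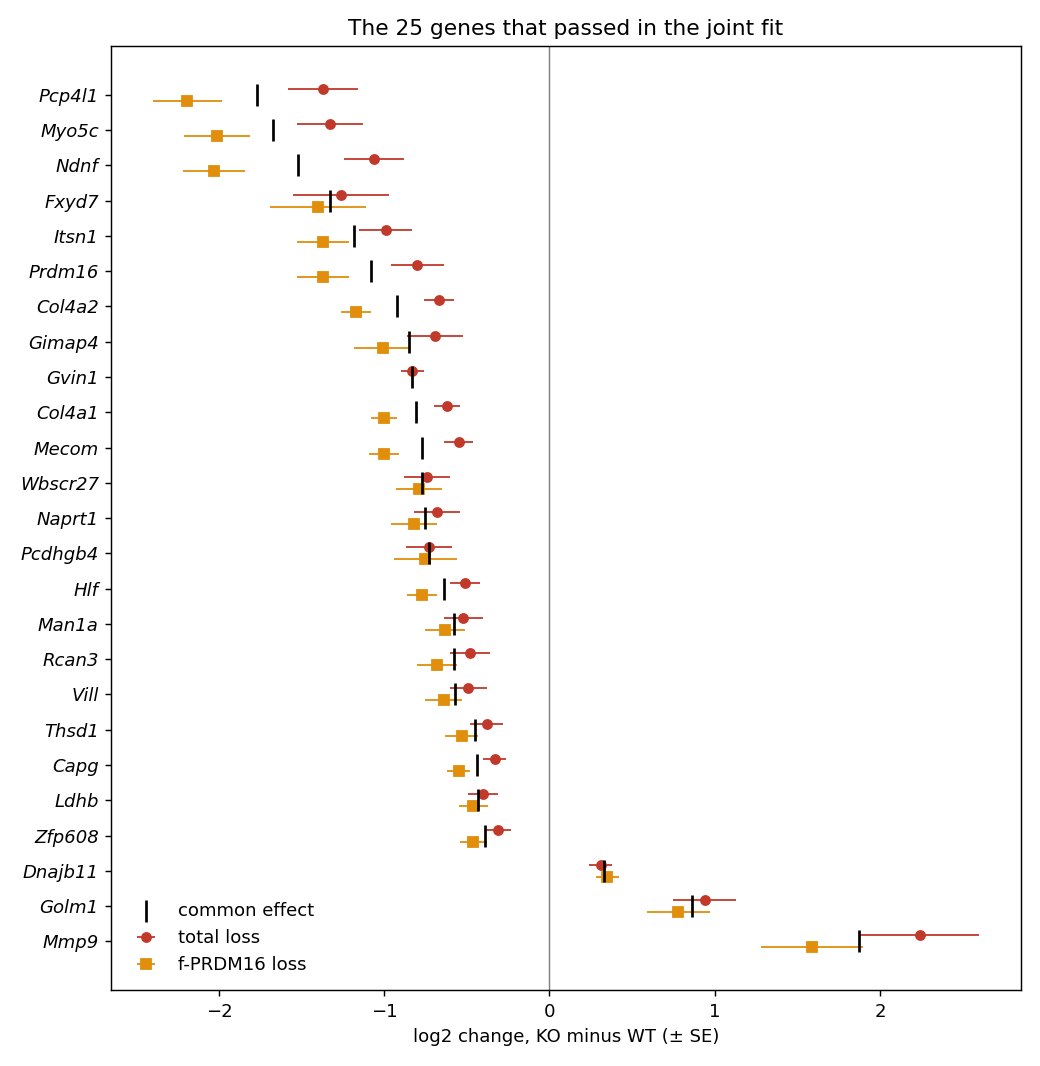
Log2 change, KO minus WT, of the 25 genes that passed, for the total loss (circles) and the f-PRDM16 loss (squares) with SE bars, and the common effect (black line). Both losses lie on the same side of 0 in the 24 genes counted in both tables, and Gvin1, uncounted in the f-PRDM16-loss table, has a total-loss point only.

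The difference between the losses was tested in the same fit. In edgeR 0 genes passed (0%), 950 (6.23%) had an unadjusted p below 0.05, and DESeq2 called 33. Among the 25 genes 7 had an unadjusted p below 0.05 for the difference, the smallest being that of Col4a2 (0.50 ± 0.13, total minus f-PRDM16, unadjusted p = 0.004, edgeR adjusted p = 0.549). Among the genes with the smallest p-values were Bank1 and H2-Q5 in 1 direction and Pdzd2, Sdk1 and Aff2 in the other, at edgeR adjusted p-values of 0.246 to 0.291, none passing. Several of them were counted very unequally between tables. Pdzd2 had 1950 to 2310 CPM in total-loss KO libraries, against 1430 to 2030 CPM in WT libraries, but 0.849 to 3.05 CPM in f-PRDM16-loss KO libraries, against 0.323 to 0.776 CPM in WT libraries.

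Genes that only 1 table counted add tests without information on the shared effect. With the 12531 genes that passed the low-count filter in each table on its own, a choice made after the data were seen, 128 genes passed (1.02%), 36 up (0.287%) and 92 down (0.734%). They held 24 of the 25, Gvin1 not being tested, and all 128 had the same sign for both losses. Since they were picked by the p of 1 change fitted to both losses, that sharing of sign is a description. The 104 further genes had adjusted p-values of 0.0505 to 0.0632 over the larger set, just outside the threshold. Among them, named after their values were seen, were the proteoglycan co-receptor Tgfbr3 (-1.05 ± 0.16, edgeR adjusted p = 0.0408), the homeobox gene Nkx2-3 (-0.86 ± 0.14, edgeR adjusted p = 0.0408), the HSC regulator Cdkn1c, a cyclin-dependent kinase inhibitor (-0.65 ± 0.12, edgeR adjusted p = 0.0497), the growth factor Igf2 (-1.11 ± 0.21, edgeR adjusted p = 0.0497) and the erythroid membrane gene Rhd (1.41 ± 0.24, edgeR adjusted p = 0.0408).

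HSC identity genes moved down as a list of low-sized changes, and few members passed alone. Of 40 tested members 0 rose and 2 fell, Hlf and Mecom, and 5 fell among genes filtered in each table, with Pdzk1ip1, Robo4 and Cdkn1c added. The median common log2 change was -0.44, with -0.22 for the total loss and -0.67 for the f-PRDM16 loss, against 0.01 over all genes tested. At an unadjusted p below 0.05 it was 1 up and 28 down, against 12.3% and 9.31% of all genes, and 19 members were lower in all 6 pairs, against 5.99% of all. Members that did not pass over all genes tested included the receptor gene Procr (-0.66 ± 0.16, edgeR adjusted p = 0.0851), Meis1 (-0.50 ± 0.12, edgeR adjusted p = 0.0866) and the junction gene Esam (-0.99 ± 0.20, edgeR adjusted p = 0.0651). Kit, the stem cell factor receptor of the sort, had -0.05 ± 0.05 (edgeR adjusted p = 0.643). Ly6a, for the other positive sort marker Sca1, had -0.52 ± 0.16 (edgeR adjusted p = 0.125), with pair values of -1.34 to -0.00.

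Granulocyte genes moved the other way by more. Of 39 tested members 1 rose, Mmp9, and 0 fell. The median common log2 change was 1.97 (2.59 for the total loss, 1.5 for the f-PRDM16 loss), and 35 members were higher and 0 lower at an unadjusted p below 0.05, against 12.3% and 9.31% of all genes. In all 6 pairs 26 members were higher, against 7.77% of all genes. The summed level of the list was 1760, 3200 and 26200 CPM in total-loss KO libraries, against 637, 843 and 3390 CPM in WT libraries. In the f-PRDM16 loss it was 10000, 40200 and 64000 CPM in KO libraries, against 9060, 4330 and 27000 CPM in WT libraries. KO exceeded WT in all 6 pairs, by 1.11-fold in f-PRDM16-loss pair 1 and 2.37-fold to 9.29-fold in the others, and levels overlapped between KO and WT in both tables.

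Single granule genes were very uneven between pairs and did not pass. Elane, neutrophil elastase, had 28.3, 55.9 and 2010 CPM in total-loss KO libraries, against 0.508, 3.07 and 297 CPM in WT libraries. Its common log2 change was 2.54 ± 0.74 (edgeR adjusted p = 0.132). S100a8, a calcium-binding protein of neutrophils, had 2.39 ± 0.56 (edgeR adjusted p = 0.0997), and Mpo 2.19 ± 0.46 (edgeR adjusted p = 0.0887). The sort used a lineage-negative gate, which is meant to remove mature granulocytes. Cd48, whose product the gate excludes, had 0.72 ± 0.13 (edgeR adjusted p = 0.0627; 0.0497 among genes filtered in each table), with 25.4, 26 and 39.9 CPM in total-loss KO libraries, against 17.7, 14.9 and 21.2 CPM in WT libraries. In the f-PRDM16 loss Cd48 had 185, 53.8 and 58.6 CPM in KO libraries, against 160, 20.6 and 41.1 CPM in WT libraries. There the groups overlapped, and both libraries of pair 1 were high in Cd48 for a CD48- sort.

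In every pair KO was higher in the granulocyte sum and lower in the HSC identity sum, but the sizes did not follow one order. The summed level of HSC identity genes, KO over WT, was 0.958, 0.92 and 0.828 in total-loss pairs 1, 2 and 3, and 0.949, 0.677 and 0.67 in the f-PRDM16-loss pairs. In f-PRDM16-loss pair 1, where granulocyte genes differed least, the list median of HSC identity was -0.30, between -0.13 and -0.16 of total-loss pairs 1 and 2 and -0.87 of f-PRDM16-loss pair 3. With the granulocyte level as a covariate the list median was -0.34, and without the 3 pairs highest in granulocyte genes -0.22. Under that covariate 0 of 15242 genes passed in edgeR (302 at an unadjusted p below 0.05), all 25 genes kept their sign and 21 had an unadjusted p below 0.05. Hlf was -0.56 ± 0.15, Mecom -0.83 ± 0.20, and Col4a1 -0.85 ± 0.18 with it. Without those 3 pairs 7 genes passed, 5 of them among the 25, including Hlf and Col4a2. The pairs kept, total-loss 1 and 2 and f-PRDM16-loss 1, still differed in granulocyte genes, by 2.77-fold, 3.79-fold and 1.11-fold. Leaving out pairs by level thus did not remove that difference, and it left 1 pair of the f-PRDM16 loss. Both settings were added after the data were seen. The covariate was the granulocyte sum of these same libraries, which was higher in KO in every pair. It therefore cannot separate granulocyte content from the KO effect. As the 25 genes were picked by p from these libraries, their kept signs are a description.

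**Figure D3:**
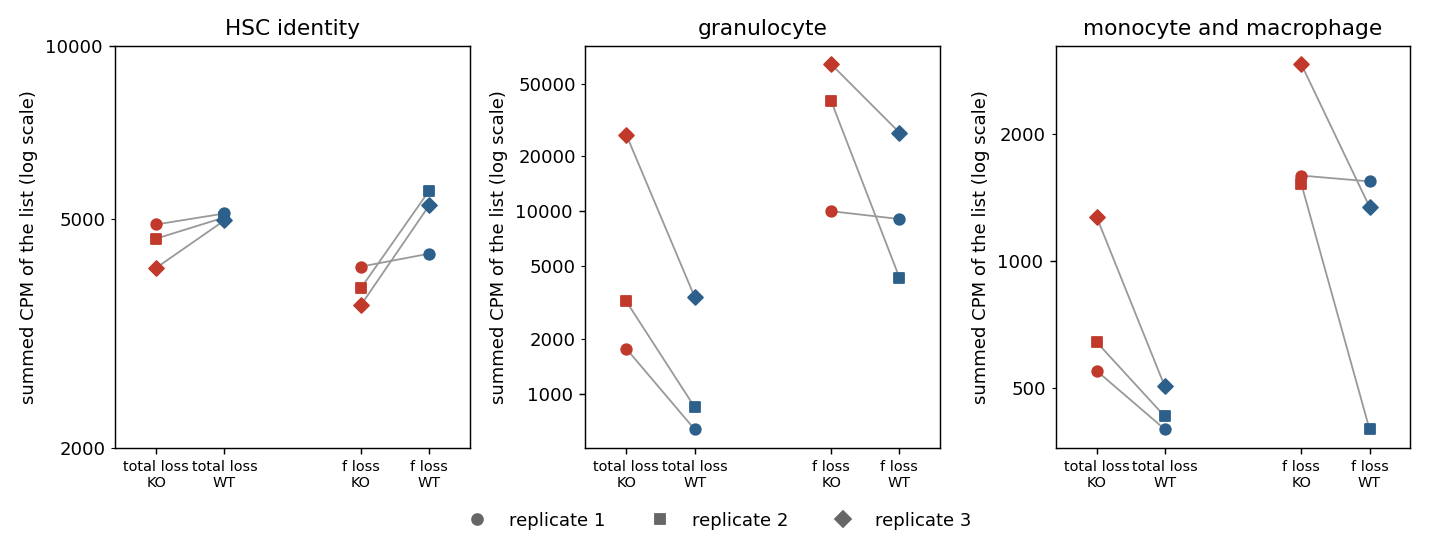
Summed CPM per library on a log axis of the HSC identity, granulocyte and monocyte lists; lines join libraries with the same replicate number. The granulocyte sum runs from 637 to 64000 CPM and is higher in KO in every pair, while the HSC identity sum is lower in KO in every pair, at 0.67 to 0.958 of WT.

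Other myeloid lists also had medians above 0. Of 31 monocyte and macrophage members 0 passed, the median was 1.25, and 18 were higher and 2 lower at an unadjusted p below 0.05, against 12.3% and 9.31% of all genes. The chemokine receptor Ccr2 had 1.56 ± 0.31 (edgeR adjusted p = 0.0679), whereas Irf8, a transcription factor of monocyte and dendritic cells, had -0.48 ± 0.11 (edgeR adjusted p = 0.0795). Mast cell and basophil genes had a median of 1.42 with 0 of 23 passing. With the granulocyte level as a covariate, which itself was higher in KO in every pair, these medians were 0.10 for monocyte and macrophage genes. They were -0.18 for mast cell and basophil genes. Erythroid genes had a median of 0.34, and 0 of 30 passed. At an unadjusted p below 0.05, 11 were higher and 6 lower, against 12.3% and 9.31% of all genes. Klf1, an erythroid master regulator, had 1.30 ± 0.28 (edgeR adjusted p = 0.0747). In all 6 pairs 8 members were higher and 2 lower, against 7.77% and 5.99% of all genes. The number lower was near that share. The 2 lower were Tspan8 (-0.94 ± 0.19, edgeR adjusted p = 0.0632) and Car2 (-0.60 ± 0.13, edgeR adjusted p = 0.0829). Hbb-b1 had 0 counts in all libraries of the f-PRDM16-loss table, so globin levels bear on the total loss only.

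Endothelial and matrix genes, many of which HSCs also express, leaned downward. In the endothelial and stroma list 0 rose and 2 fell of 29, Col4a1 and Col4a2, which are also the 2 that fell of 25 matrix and adhesion genes. The endothelial median was -0.37, with 13 members lower and 2 higher at an unadjusted p below 0.05, against 9.31% lower and 12.3% higher of all genes. The angiopoietin receptor genes Tek (-0.66 ± 0.16, edgeR adjusted p = 0.083) and Tie1 (-0.62 ± 0.13, edgeR adjusted p = 0.0749) did not pass. Among defining endothelial genes Cdh5, VE-cadherin, had -0.14 ± 0.20 (edgeR adjusted p = 0.738) and Kdr -0.54 ± 0.40 (edgeR adjusted p = 0.486). The part of other cell types in these values was not tested.

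Growth and metabolic lists shifted by little, and the interferon list by more and unevenly between pairs. Proliferation genes had a median of 0.16 and pair medians between 0.07 and 0.25; 32 of 51 were higher and 1 lower at an unadjusted p below 0.05, against 12.3% and 9.31% of all genes, and 0 passed. Rrm2, a subunit of ribonucleotide reductase, had 0.50 ± 0.09 (edgeR adjusted p = 0.0627). Cytosolic ribosomal protein genes had a median of 0.13 with 51 of 83 higher and 0 lower at that p, against the same 12.3% and 9.31%, and nuclear oxidative phosphorylation genes 0.11 with 37 of 76 higher and 0 lower; 0 passed in either list. Interferon response genes had a median of -0.26, against 0.01 over all genes tested, with 42 of 48 below 0, and 0 passed. Of these genes 13 were lower and 0 higher at an unadjusted p below 0.05, against 9.31% and 12.3% of all genes. Pair medians ran from -0.81 in f-PRDM16-loss pair 2 to 0.17 in f-PRDM16-loss pair 1. With the granulocyte level as a covariate, which itself was higher in KO in every pair, the common median of the interferon list was 0.17, the opposite sign.

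Glycolysis and hypoxia genes were split. Of 38 members 0 rose and 1 fell, Ldhb, with a median of 0.08. Ldhb had 28, 30.7 and 55 CPM in total-loss KO libraries, against 38.1, 41.7 and 68.1 CPM in WT libraries. Its partner subunit Ldha had 0.21 ± 0.04 (edgeR adjusted p = 0.0628), and the enzymes Pgam1 (0.36 ± 0.06, edgeR adjusted p = 0.053), Pgk1 (0.30 ± 0.06, edgeR adjusted p = 0.0632) and Gapdh (0.29 ± 0.06, edgeR adjusted p = 0.0722) were higher in KO in all 6 pairs without passing.

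PRDM16's family and partners changed little apart from Prdm16 and Mecom. Of 21 tested members 0 rose and 2 fell, those 2, and the median was -0.05. Prdm11 had -0.42 ± 0.13 (edgeR adjusted p = 0.122) and Ski, a corepressor partner, -0.47 ± 0.15 (edgeR adjusted p = 0.121). Ctbp1 had -0.03 ± 0.05 (edgeR adjusted p = 0.843). Cebpb, a partner in brown fat, had 0.50 ± 0.14 (edgeR adjusted p = 0.101).

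**Figure D4:**
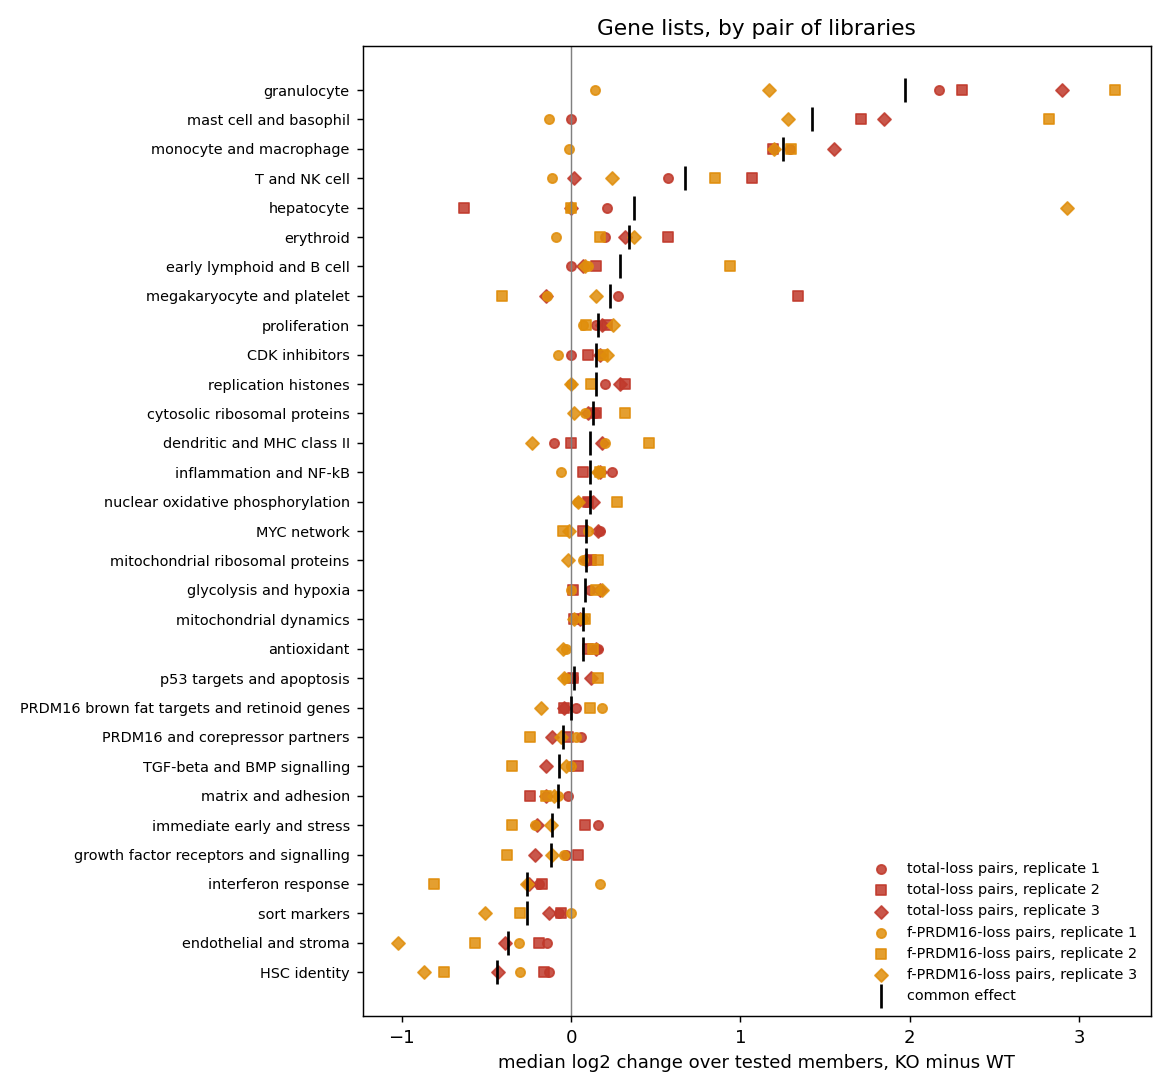
Median log2 change, KO minus WT, over the tested members of 31 gene lists (without the sex-linked list), for each pair (symbols) and for the common effect (black line). HSC identity lies below 0 in all 6 pairs, and granulocyte genes lie above 0 in all 6 and spread from 0.14 to 3.21.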

How the data were processed

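RNA was measured by poly-A sequencing with a SMARTer low-input step, per the labels' protocols. The authors deposited whole-number counts per gene; bcl2fastq 2.17, TopHat, DESeq and build mm9 are named in the submitters' processing notes. The counting tool, annotation and strand are not given in the sources used here, so overlapping genes cannot be told apart. The tables held 22803 (total loss) and 24047 rows (f-PRDM16 loss). Gm-numbered genes, left out, took 9.27 to 10.3% of the total-loss counts and 0.119 to 0.212% of the f-PRDM16-loss counts; 92 spike-in and 26 date-like names fell out of the join. Leukaemia and bone marrow libraries were not used here. Counts of 30 pairs of libraries within tables were compared and no deposit was repeated (chi-square over its degrees of freedom at least 12.3).

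Counts were joined on symbol, filtered with filterByExpr (minimum count 10), scaled by TMM and fitted in edgeR 4.0.16 (R 4.3.3, limma 3.58.1; robust quasi-likelihood F test, two-sided, Benjamini-Hochberg threshold 0.05). The block was table plus replicate number, with 5 residual degrees of freedom for the common effect and 4 for the difference. The common biological coefficient of variation was 0.193. The error after ± is the SE. The labels call replicates independent but give no pairing. Deviations from group means correlated within same-number pairs at 0.334, 0.165 and 0.534 (total loss) and 0.466, 0.236 and 0.327 (f-PRDM16 loss). All were over 0.1, so the block was kept. In the total loss KO 1 also correlated with WT 2 (0.282), and KO 2 with WT 1 (0.246), more than with its own WT 2. Other different-number values ran from -0.438 to 0.0502. The numbering of total-loss pairs 1 and 2 is thus not settled by these values. Without the block 0 genes passed.

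The pooled libraries, gene lists and rules were chosen with earlier results of these data known, and list counts are descriptions without a test. Named genes were Prdm16, up to 12 genes per direction by size (passing, 1 sign in all 6 pairs, mean log2 CPM at or over 3 in each table), up to 4 passing members per list, up to 3 per direction for the difference, and fixed markers of other cell types. Further genes among the 25, and list members that did not pass, were named after their values were seen. A few genes that these rules name are not reported here. Alternatives were RLE scaling, TMM within each table, no filter, DESeq2 1.42.0, no block, each table alone and each pair left out. On simulated data the common test recovered 77% of 2-fold and 90% of 4-fold changes, with 9 unchanged genes called (15030 genes). The difference test recovered 45% and 69%, with 8 (15024 genes). Changes were placed only in genes above a minimum mean count, at the same size in every pair that carried them. Real changes varied between pairs, as for Elane (0.07 to 5.76), so these shares need not hold for such genes. Figures used Python 3.11.15 with matplotlib 3.10.9.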

Additional observations from a re-analysis of the deposited data

Results flagged for a closer look

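In 25 genes and 32 list medians, 4 had 1 pair standing apart from the other 5 by Dixon's criterion for 6 values, where chance gives about 1 in 20. Rcan3 was -0.26 in total-loss pair 1 and -0.70 to -0.58 in the other pairs. The monocyte and macrophage list had a median of -0.01 in f-PRDM16-loss pair 1, the pair with the smallest granulocyte difference, and 1.19 to 1.55 in the others. Early lymphoid and B-cell genes had 0.94 in f-PRDM16-loss pair 2, against 0 to 0.15 elsewhere. Hepatocyte genes had 2.93 in f-PRDM16-loss pair 3, against -0.63 to 0.21 elsewhere. In that pair Alb had 1.61 CPM in the KO library and 0 CPM in the WT library.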

How the results depend on the processing

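The count of shared genes depended strongly on the setting. All 25 genes kept their sign in every setting in which they were tested. They were picked by p from these same libraries, so their kept signs are a description and no independent check. Against 25, RLE scaling gave 24, and TMM by table left it at 25. The count was 66 without the filter (15 up, 51 down), 1685 in DESeq2 (946 up, 739 down), 0 without the replicate block (1268 at an unadjusted p below 0.05), 160 for the total-loss table alone (77 up, 83 down) and 0 for the f-PRDM16-loss table alone (1629 at an unadjusted p below 0.05). Settings added after the data were seen gave 0 with the granulocyte covariate, 7 without the 3 pairs highest in granulocyte genes and 128 with the filter passed in each table. Leaving out 1 pair gave 0 to 409 genes: 40, 1 and 0 without total-loss pairs 1, 2 and 3, and 409 (268 up, 141 down), 0 and 12 without f-PRDM16-loss pairs 1, 2 and 3. At counts of 0 there, 2340 and 2417 genes had an unadjusted p below 0.05. In each such fit all 25 genes kept an unadjusted p below 0.05; Itsn1, called in 4 of 6, ranged over -1.29 to -1.08. The cause was not tested.

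For the difference between losses the count was 0 in edgeR, 33 in DESeq2 (20 up, 13 down), 1 with the granulocyte covariate, and 0 to 15 when 1 pair was left out, 15 without f-PRDM16-loss pair 1. Of 32 list medians over all settings, 22 values moved by more than the spread between pairs, 14 of them with the granulocyte covariate. With 6 pairs and few residual degrees of freedom, changes near the threshold cannot be ranked.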

Other observations

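Other blood-cell lists held values not given above, with 0 members passing in each over all genes tested. Among genes filtered in each table the T-cell gene Cd3g passed (edgeR adjusted p = 0.0467). So did Plek of the platelet list (0.47 ± 0.08, edgeR adjusted p = 0.0408). T and NK cell genes had a median of 0.67 over 26 members, with Cd3g, a chain of the T-cell receptor complex, at 1.91 ± 0.35 (edgeR adjusted p = 0.0584) and the NK receptor gene Klrb1c at -1.36 ± 0.28 (edgeR adjusted p = 0.0646). The 27 platelet and megakaryocyte genes had a median of 0.23, and their pair medians ran from -0.41 to 1.34. Pf4, platelet factor 4, had 176, 246 and 20.6 CPM in total-loss KO libraries, against 134, 89.1 and 27.8 CPM in WT libraries. Pf4 in the f-PRDM16 loss had 10.5, 26.6 and 66.1 CPM in KO libraries, against 13.3, 45.3 and 104 CPM in WT libraries. Pf4 was higher in KO in 2 of 3 total-loss pairs and in 0 of 3 f-PRDM16-loss pairs, and the test of the difference gave 1.10 ± 0.47 (edgeR adjusted p = 0.814).

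Imprinted growth genes of fetal liver were uneven. Igf2 had -1.10 ± 0.22 (edgeR adjusted p = 0.0627), Dlk1 -0.44 ± 0.13 (edgeR adjusted p = 0.114) and H19 -0.57 ± 0.29 (edgeR adjusted p = 0.29). Igf2 and Dlk1 were lower in KO in all 6 pairs, and H19 in 4 of 6. Metallothionein genes Mt1 and Mt2, which bind metal ions, had 1.14 ± 0.30 (edgeR adjusted p = 0.109) and 1.38 ± 0.29 (edgeR adjusted p = 0.0722).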
